A study of Mus musculus with 9 samples.

Results

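The genes described here encode the ubiquitin and proteasome system, the machinery that tags proteins for destruction and takes them apart. They were chosen by symbol alone, as every gene in the deposited table whose name begins like a proteasome subunit, a ubiquitin precursor, an E1 or E2 enzyme, a cullin, an F-box protein, a Rnf RING finger protein, a deubiquitinase of the Usp, Uch or Otu families, or a ubiquilin or UBX protein. This rule found 64 of the 2996 genes in the table. They comprised 13 proteasome subunits, 2 ubiquitin precursors, 1 E1 enzyme, 10 E2 enzymes, 24 ligase genes, 8 deubiquitinases, 5 shuttle or p97 cofactor genes and Psmc3ip, a cofactor of meiotic recombination that is no proteasome subunit and was caught by its name only. Other genes of the system, including most proteasome subunits, were not analysed here.

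Messenger RNA was sequenced from perfused brain tissue of aged mice that drank water with perfluorooctane sulfonate (PFOS), a persistent fluorinated surfactant. Group H is read as the 50 µg per litre concentration and group L as the 0.5 µg per litre concentration, both given for 7.5 months, and group C is the comparison group, for which the labels name no PFOS. All mice are described as 24 months old, and the sources used here give neither strain nor sex. Each group held 3 libraries, H1 to H3, L1 to L3 and C1 to C3. Whether the libraries came from separate animals is not stated, and the p-values therefore measure the spread between samples, part or all of which may be technical. Levels are FPKM, fragments scaled to gene length and to the reads of the library, and differences are on the scale of log2(FPKM + 1).

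Ubiquitin is a small protein that an E1 enzyme activates, an E2 enzyme carries and an E3 ligase attaches to a substrate. Chains of ubiquitin bring the substrate to the 26S proteasome, in which the barrel-shaped 20S core cuts proteins and the 19S regulatory particle recognises, unfolds and feeds them in. Deubiquitinases take ubiquitin off again, and in neurons the system governs protein turnover at synapses as well as the removal of misfolded proteins.

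Library totals recovered from the values were 18583511 to 20431208 reads in H, 16399627 to 19999722 in L and 15371513 to 19263869 in C. Several libraries stood apart in ways the groups do not explain. The cerebellar marker list, of which 4 of 14 genes were in the table (Gabra6, Ppp1r17, Pcp2 and Slc1a6), summed to 2.48 to 11.5 FPKM in H, to 4.15 to 126.3 in L and to 2.45 to 548.6 in C, with the top values in L3 and C1 and with Gabra6 at 0 in H2, H3, C2 and C3. Of the pallial list, 4 of 14 genes, among them Stx1a and Mef2c, summed to 110.7 to 213.7 FPKM in H, 6.64 to 157.9 in L and 7.50 to 183.9 in C, with the lowest sums in L3 and C1. The striatal list (Adora2a and Rgs9, 2 of 9 genes) summed to 53.0 FPKM in H2, 57.0 in L1, 22.1 in C2 and 24.97 in C3, against 1.26 to 2.67 in the other libraries, so it split every group. The neuronal list (Eno2, Map2 and Rtn1, 3 of 11 genes) lay at 502 to 531 FPKM in H, 417 to 517 in L and 365 to 495 in C, so genes of the labelled tissue were present, and none of the 12 microglial or 3 blood markers was in the table. In C1 and C3 log2 levels climbed with gene length relative to the other libraries, with slopes of 0.10 and 0.09 per doubling of length against -0.05 to 0.005 in the other 7. In bulk tissue, fewer cells of a type and less RNA per cell cannot be told apart.

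Most of the system was well expressed. Of the 64 genes, 59 exceeded 1 FPKM in at least 3 libraries and were tested, and their median mean level was 21.2 FPKM, against 8.23 FPKM over all 2226 tested genes. Those left out were the mitotic E2 gene Ube2c, Rnf17, Rnf151, Usp43 and Usp44, with Usp43 over 1 FPKM in 2 libraries, and Psmc3ip and Fbxo5 passed with 4 libraries each. The ubiquitin precursor Ubb was the most abundant member, at 437 ± 6.85 FPKM in H, 435 ± 53.5 in L and 395 ± 38.8 in C (SD, n = 3 each). Mean levels over the 9 libraries ran from 21.2 to 65.7 FPKM among 5 genes of the 20S core and from 13.0 to 127.4 among 8 genes of the 19S particle. Ligase genes had a median of 12.9 FPKM and deubiquitinases of 5.58 FPKM. The top members of the other classes were Uba1, the main E1 enzyme of ubiquitin, at 90.9 FPKM, the RING finger gene Rnf187 at 126.4 FPKM, the E2 genes Ube2b and Ube2m, the F-box genes Fbxw11 and Fbxo11, the cullin Cul3, the deubiquitinases Usp32 and Usp19, and the shuttle genes Ubqln1 and Ubqln4. Chromosome 11 held 22 of the 64 genes, 34.4% against 24.9% of all genes in the table.

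**Figure D1:**
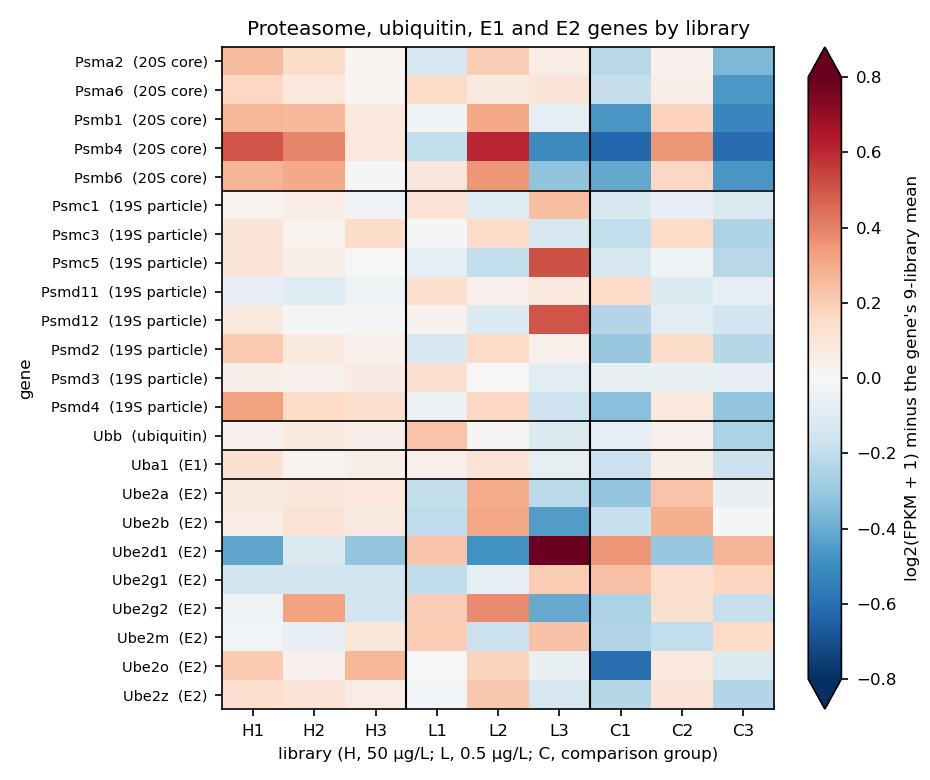
Level of tested proteasome, ubiquitin, E1 and E2 genes (rows) in the 9 libraries (columns, H left of L and C), as log2(FPKM + 1) minus the gene's mean over the 9 libraries, red above and blue below the mean. C1 and C3 were the bottom pair of libraries in 10 of the 13 proteasome genes.

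In H against C, 12 of the 13 proteasome genes had a positive difference, where 52.7% of all tested genes did. No gene of the table passed the threshold. The proteasome count was 11 under quantile normalization, 10 with each library's length trend removed and 13 without C1 and L3. In the same order, the shares of all tested genes above 0 in these fits were 50.5%, 50.1% and 61.7%. The median difference was 0.24 for the proteasome genes and 0.02 for all tested genes. Over the ubiquitin and proteasome genes 34 of 59 were above 0. None was called by limma at an adjusted p under 0.05, where 0% of all tested genes were called and the smallest adjusted p was 0.890, and none was called by limma-voom on the recovered reads. At an unadjusted p under 0.05 there were 3 members, Psmd4 and Psmb1 higher and Ube2g1 lower, where 3.19% of all tested genes passed. The smallest p an exact permutation test of 3 against 3 can give is 0.1. Group H lay wholly above C for 5 members, where 5.35% of all tested genes did, and wholly below C for 2, where 4.94% did. All 5 were subunits of the 19S particle (Psmc1, Psmc5, Psmd3, Psmd4 and Psmd12), and the 2 lower ones were Ube2g1 and Rnf185. The median half-width of the 95% confidence interval was 0.35 for a proteasome gene, so differences of that size in either direction were not resolved.

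The 5 genes of the 20S core had differences of 0.29 to 0.62 in H against C, with a median of 0.43. This median was 0.63 without C2 and 0.31 with each library's length trend removed. With the log2 library total as a covariate it was 0.17, where that of the 19S particle was 0.14. Psmb4, a β-ring subunit without catalytic activity (ENSMUSG00000005779, chr3:94884093-94886961, GRCm38, minus strand), stood at 55.8, 51.7 and 41.5 FPKM in H1 to H3, with 34.0, 60.1 and 27.3 FPKM in L1 to L3, and at 24.97, 50.4 and 25.3 FPKM in C1 to C3. Here H and C overlapped, since C2 lay between H2 and H3, while C1, C3 and L3 made up the bottom of the range. The difference of H against C was 0.62 ± 0.34 (SE, unadjusted p = 0.106, limma), and it was 0.94 without C2 and 0.17 with library total as a covariate. Psmb1, another β-ring subunit (ENSMUSG00000014769, chr17:15475021-15499751, minus strand), had 25.2, 25.1 and 22.1 FPKM in H, 20.3, 25.8 and 19.7 FPKM in L and 14.7, 23.7 and 14.2 FPKM in C. Again C2 lay inside the range of H while C1 and C3 lay well below all other libraries. Its difference was 0.47 ± 0.20 (unadjusted p = 0.0445, adjusted p = 0.890, limma). Psmb6, the catalytic β subunit that cuts after acidic residues, averaged 35.5 ± 3.95 FPKM in H, 32.3 ± 7.56 in L and 26.5 ± 7.06 in C (SD, n = 3 each). Of the α-ring subunits, which gate the entry to the barrel, Psma2 averaged 25.9 ± 2.20 FPKM in H, 24.2 ± 2.88 in L and 20.6 ± 3.06 in C, a difference of 0.32 in H against C. Psma6 had 73.3, 69.0 and 66.2 FPKM in H, 72.5, 68.5 and 70.0 FPKM in L and 56.8, 67.6 and 47.1 FPKM in C. For Psma6 all 3 L libraries lay above all C libraries, whereas H3 lay just under C2. Its difference of 0.29 in H against C was 0.08 with each library's length trend removed.

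**Figure D2:**
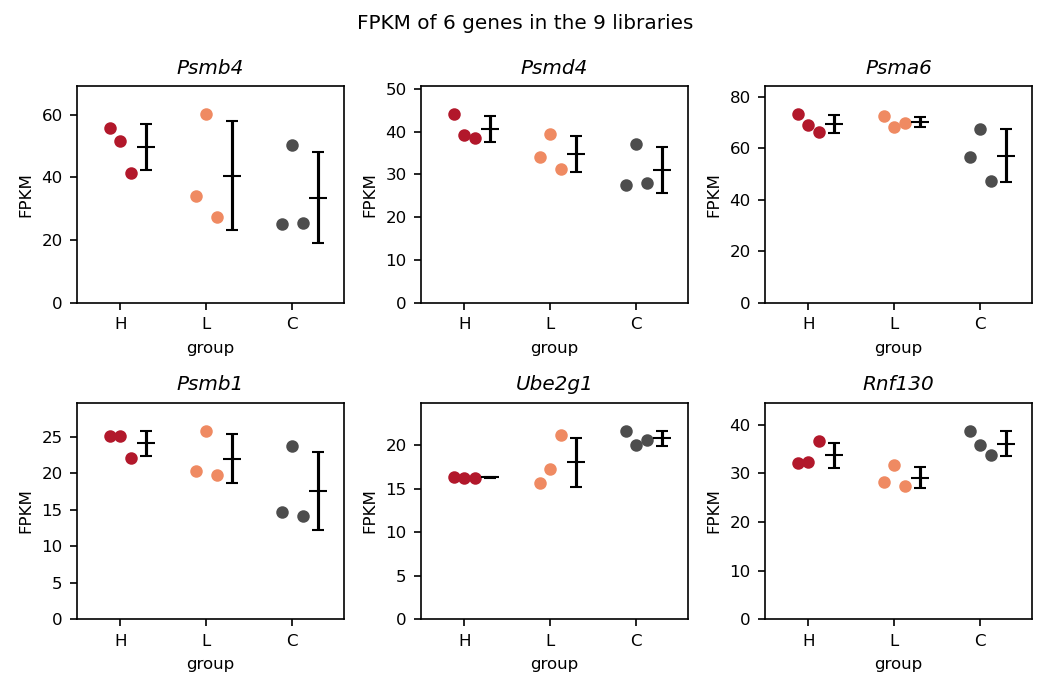
FPKM of 6 genes in each library (points), with the group mean and SD beside them (bars, n = 3), for groups H, L and C. Psmd4 is the gene among the 6 whose 3 H libraries, at 38.4 FPKM or more, all lie above the 3 C libraries, and Ube2g1 the one whose H libraries all lie below them.

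The 19S particle had smaller differences in H against C, with a median of 0.18, 7 of 8 genes above 0 and 1 below. Psmd4, a ubiquitin receptor of the particle (ENSMUSG00000005625, chr3:95032694-95042614, minus strand), had 44.0, 39.3 and 38.4 FPKM in H, 33.9, 39.4 and 31.1 FPKM in L and 27.6, 37.2 and 28.0 FPKM in C. Every H library lay above every C library, the nearest pair being H3 and C2. The difference was 0.39 ± 0.15 (unadjusted p = 0.0326, adjusted p = 0.890, limma). The ATPase subunits, which unfold substrates, were Psmc1, Psmc3 and Psmc5. Psmc1 had 106 ± 3.41 FPKM in H, 112 ± 13.3 in L and 97.6 ± 2.06 in C, a difference of 0.12 in H against C that turned to -0.00925 under quantile normalization and to -0.00826 with each library's length trend removed. Psmc5 had 135, 131 and 126 FPKM in H, 119, 110 and 180 FPKM in L and 115, 123 and 108 FPKM in C, with L3 far above all others. Its difference of 0.18 in H against C became -0.00149 with the length trend removed. Psmc3 averaged 59.4 ± 2.46 FPKM in H, 56.0 ± 5.67 in L and 52.5 ± 8.59 in C.

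Among the non-ATPase subunits, Psmd2, a scaffold that binds shuttle proteins, averaged 61.5 ± 4.05 FPKM in H, 58.0 ± 5.67 in L and 52.5 ± 9.37 in C, a difference of 0.24 in H against C that was 0.37 without C2 and 0.05 with library total as a covariate. The lid subunits Psmd3, Psmd11 and Psmd12 differed among themselves. Psmd3 was the steadiest member of the proteasome, at 19.2, 19.05 and 19.5 FPKM in H, 20.4, 18.7 and 17.4 FPKM in L and 17.8, 17.9 and 17.8 FPKM in C. The C libraries of Psmd3 had an SD of 0.0458 FPKM, and H lay wholly above them by a difference of only 0.11. Psmd12 had 34.4, 32.3 and 32.2 FPKM in H, 33.3, 30.1 and 46.5 FPKM in L and 27.5, 30.4 and 29.1 FPKM in C, again with L3 at the top as for Psmc5, and H wholly above C. Psmd11 was the exception, with 12.3 ± 0.287 FPKM in H, 13.8 ± 0.450 in L and 12.9 ± 1.40 in C and a difference of -0.06 in H against C, which was 0.02 without C1. It was also the proteasome gene with the longest exon length in the table, 6383 bases, against a median of 2649 bases over the 13 genes and 4308 bases over all tested genes.

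The promoters of the proteasome genes are shown because 12 of the 13 subunits of this one complex lay on the same side of C. RefSeq (GRCm38.p6) gave a promoter, from 250 bases before to 50 bases after the start, for 50 of the 64 genes and 10 of the 13 proteasome genes. Both strands were searched for CCGGAAG, the core letters of an ETS factor site, for TGACNNNGC, the core of the antioxidant response element, for GAANNTTC, a heat shock element pair, and for the CCAAT box. The ETS letters were found in 6 of the 10 proteasome promoters (60%), in 5 of 6 of the 19S particle (83.3%) and in 1 of 4 of the 20S core, the last at the further RefSeq start of Psma6. They were found in 9.93% of the promoters of all 27025 genes and in 19.6% of those of 1831 tested genes. TGACNNNGC was in 20% of the proteasome promoters and 14.0% of all, CCAAT in 40% and 41.1%, and GAANNTTC in 0 of 10 and 9.04%. A match is a run of letters and no evidence of binding. The stretches below run 5′ to 3′ on the gene's strand, with CCGGAAG or its reverse complement CTTCCGG in capitals. For Psmc1 (chr12:100110127-100110226, plus strand), Psmd2 (chr16:20651577-20651676, plus strand), Psmd11 (chr11:80428540-80428639, plus strand), Psmd12 (chr11:107479453-107479552, plus strand) and Psmb4 (chr3:94886934-94887033, minus strand) they span 75 bases before to 25 bases after the start. For Psmd4 (chr3:95042665-95042764, minus strand) the stretch lies 150 to 51 bases before the start.
Psmc1: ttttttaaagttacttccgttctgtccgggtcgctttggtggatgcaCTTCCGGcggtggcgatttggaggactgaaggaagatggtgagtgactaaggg
Psmd2: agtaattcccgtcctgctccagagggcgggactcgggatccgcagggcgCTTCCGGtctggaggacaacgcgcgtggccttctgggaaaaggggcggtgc
Psmd11: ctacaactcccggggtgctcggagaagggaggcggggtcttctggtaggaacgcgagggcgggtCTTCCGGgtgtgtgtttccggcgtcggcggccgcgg
Psmd12: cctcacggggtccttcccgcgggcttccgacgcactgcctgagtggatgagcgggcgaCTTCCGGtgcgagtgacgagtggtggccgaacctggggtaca
Psmd4: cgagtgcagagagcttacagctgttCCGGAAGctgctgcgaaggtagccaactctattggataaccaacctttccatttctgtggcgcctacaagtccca
Psmb4: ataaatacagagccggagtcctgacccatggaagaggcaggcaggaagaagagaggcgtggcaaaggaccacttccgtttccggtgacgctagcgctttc
Counted from the start, the run begins at position -28 in Psmc1, -26 in Psmd2, -11 in Psmd11, -17 in Psmd12 and -125 in Psmd4. Psmb4 has no match in this stretch. Any relation between the run and the level of a gene was not tested.

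Ubb, a ubiquitin precursor that encodes head-to-tail repeats of ubiquitin (ENSMUSG00000019505, chr11:62551171-62553213, plus strand), had 430.1, 443.8 and 436.7 FPKM in H, 492.9, 424.5 and 387.5 FPKM in L and 402.2, 430.4 and 353.7 FPKM in C. The H libraries lay close together and overlapped C through C2, which lay just above H1, while L spanned a wider range. The difference was 0.15 ± 0.13 in H against C (unadjusted p = 0.301, limma), which became -0.00496 with the length trend removed, and 0.13 in L against C. The repeats of ubiquitin genes are near-identical, and how the counting assigned reads shared between such genes is not stated.

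Of 9 tested E2 genes, 6 were above 0 and 3 below in H against C. Ube2g1, an E2 enzyme of endoplasmic reticulum-associated degradation (ENSMUSG00000020794, chr11:72607283-72686481, plus strand), had 16.4, 16.3 and 16.2 FPKM in H, 15.7, 17.3 and 21.2 FPKM in L and 21.7, 20.04 and 20.6 FPKM in C. The H libraries were almost identical and lay wholly below C, while L spanned both. The difference of H against C was -0.33 ± 0.12 (unadjusted p = 0.0265, adjusted p = 0.890, limma), and it was -0.36 with library total as a covariate and -0.30 without C1 and L3. Its relative Ube2g2 showed no such order, with 11.3 ± 2.16 FPKM in H, 11.6 ± 3.30 in L and 10.1 ± 1.62 in C. Ube2o, a large enzyme that joins E2 and E3 activity, had 33.6, 29.6 and 35.0 FPKM in H, 29.1, 32.9 and 27.7 FPKM in L and 18.7, 30.7 and 26.7 FPKM in C, with C1 alone far below the rest. Its difference was 0.38 ± 0.18 in H against C (unadjusted p = 0.0672), which was 0.18 without C1, and 0.25 in L against C. Ube2z, an E2 served by the alternative E1 Uba6, had a difference of 0.22 in H against C, and Ube2m, which loads NEDD8 onto cullins, of 0.18 in L against C. Ube2d1, a promiscuous E2, had the widest range of log2(FPKM + 1) after Rnf112, at 11.1, 13.9 and 11.98 FPKM in H, 17.9, 10.5 and 26.8 FPKM in L and 19.5, 12.1 and 18.4 FPKM in C. Its high libraries were L3, C1, C3 and L1, and its difference of H against L was -0.46, which was -0.79 without L2 and -0.15 without L3.

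The direction of the ligase genes turned with the libraries included. In H against C, 8 of 22 tested ligase genes were above 0 and 14 below, with a median of -0.03, and 47.3% of all tested genes were below 0. Without C1 and L3, 13 of 21 were above 0 and 8 below, with a median of 0.03, where 61.7% of all tested genes were above 0. The Rnf genes made up most of this, with 10 of 13 below 0 in H against C, also under quantile normalization and under median of ratios scaling, but 7 of 13 without C1 and L3. F-box genes were split 4 to 4, and without C1 and L3 6 of 7 were above 0. Rnf185, an endoplasmic reticulum ligase, had 14.3, 13.6 and 12.8 FPKM in H, 14.9, 13.8 and 13.9 FPKM in L and 14.5, 15.2 and 15.4 FPKM in C, H lying wholly below C by a difference of -0.14 (unadjusted p = 0.203). Rnf112, a brain-enriched RING finger gene, had the widest range of log2(FPKM + 1) of all members, at 40.8, 41.6 and 58.4 FPKM in H, 35.9, 57.1 and 27.5 FPKM in L and 95.3, 70.6 and 40.4 FPKM in C. C1 was at the top and L3 at the bottom, 3.46-fold apart, so the libraries with high cerebellar markers held both ends. Deubiquitinases had a median difference of -0.15 in H against C, with 4 of 6 below 0, but 0.02 and 3 of 6 without C1 and L3. Otub2, of the OTU family, had 4.78, 5.56 and 6.29 FPKM in H, 5.12, 10.4 and 4.04 FPKM in L and 5.24, 10.4 and 8.89 FPKM in C, a difference of -0.45 ± 0.32 (unadjusted p = 0.203). For Otub2 the difference was -0.27 without C2 and -0.70 without C1 and L3 (unadjusted p = 0.0302, adjusted p = 0.954, limma). It was -0.71 with the regional marker score, the cerebellar minus the pallial marker level of each library, as a covariate (unadjusted p = 0.00259, adjusted p = 0.936, limma). Usp40 was level at 1.35 ± 0.120 FPKM in H and 1.51 ± 0.141 in L, and in C it stood at 3.24 FPKM in C1 against 1.29 and 1.13 in C2 and C3. The 5 shuttle and cofactor genes had a median of 0.02 in H against C, and Ubqln1, the ubiquilin that carries ubiquitylated proteins to the proteasome, was at 62.7 ± 4.32 FPKM in H, 61.6 ± 6.70 in L and 62.0 ± 3.78 in C.

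**Figure D3:**
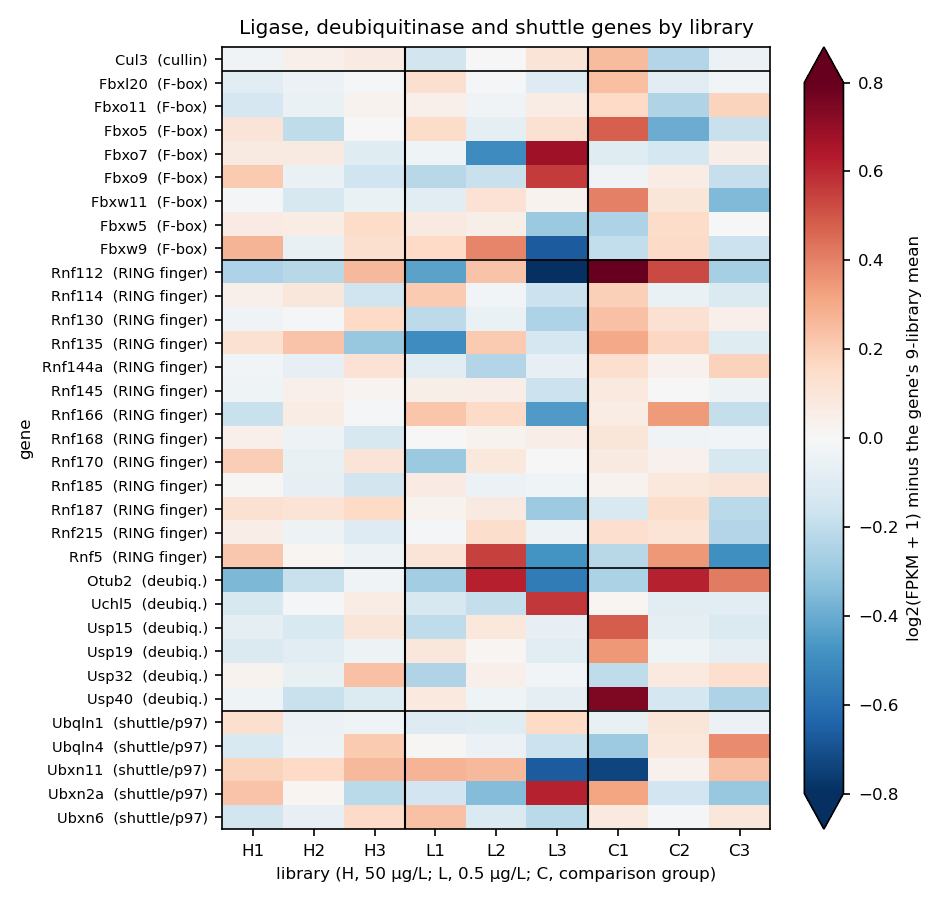
Level of each tested ligase, deubiquitinase and shuttle or p97 cofactor gene (rows) in the 9 libraries (columns, H left of L and C), as log2(FPKM + 1) minus the gene's mean over the 9 libraries. The deepest colours lie in C1 and L3, as for Rnf112 and Usp40.

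In L against C, all 13 proteasome genes had a positive difference, with a median of 0.21 against 0.03 for all tested genes, of which 56.3% were above 0 and 43.7% below. The count was 13 under quantile normalization and median of ratios scaling, and 12 with the length trend removed, without C1 and L3, without L2 and without L3. In the same order, 46.9%, 47.8%, 47.0%, 68.5%, 54.5% and 58.7% of all tested genes were above 0 in these fits. Because both contrasts use the same C libraries, the proteasome counts for L against C and for H against C are not separate evidence. The median over the 13 genes was 0.12 without L2 and 0.14 without C3. It was 0.28 for the 20S core and 0.16 for the 19S particle, and 0.17 and 0.08 with the length trend removed. No member was called at an adjusted p under 0.05, where 0% of all tested genes were called, and the smallest adjusted p among members was 0.998. At an unadjusted p under 0.05 there were 2 members, among them Rnf130, where 3.91% of all tested genes passed. Group L lay wholly above C for 1 member, Psma6 (4.99% of all tested genes), and wholly below C for 2, Rnf130 and Rnf144a (1.66%). Psma6 differed by 0.31 ± 0.14 (unadjusted p = 0.0633, limma), and by 0.18 with the length trend removed. Psmd12 had a difference of 0.30, or 0.12 without L3, its highest library, and Psmb4 one of 0.26 that was -0.06 without L2.

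Rnf130, a membrane-bound RING ligase of the Goliath family (ENSMUSG00000020376, chr11:50025346-50104758, plus strand), had 32.1, 32.4 and 36.7 FPKM in H, 28.3, 31.6 and 27.5 FPKM in L and 38.8, 35.8 and 33.7 FPKM in C. L lay below both other groups with no overlap, and H overlapped C. The difference of L against C was -0.30 ± 0.12 (unadjusted p = 0.0321, adjusted p = 0.998, limma), and it was -0.21 without C1 and L3. Rnf144a, a RING-between-RING ligase, followed the same order, with 6.15, 5.92 and 6.86 FPKM in H, 5.85, 5.16 and 5.91 FPKM in L and 6.96, 6.41 and 7.22 FPKM in C. Its L libraries all lay below H as well as C, L3 and H2 being nearly level. The difference was -0.25 in L against C (unadjusted p = 0.0595). Rnf112 had a difference of -0.74 ± 0.35 in L against C (unadjusted p = 0.0665), with C1 and L3 at its ends, and of -0.23 without them. In total, 9 of 13 Rnf genes and 14 of 22 ligase genes were below 0 in L against C, but without C1 and L3 this was 6 of 13 Rnf genes and 9 of 21 ligase genes, with a ligase median of 0.04, where 68.5% of all tested genes were above 0.

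**Figure D4:**
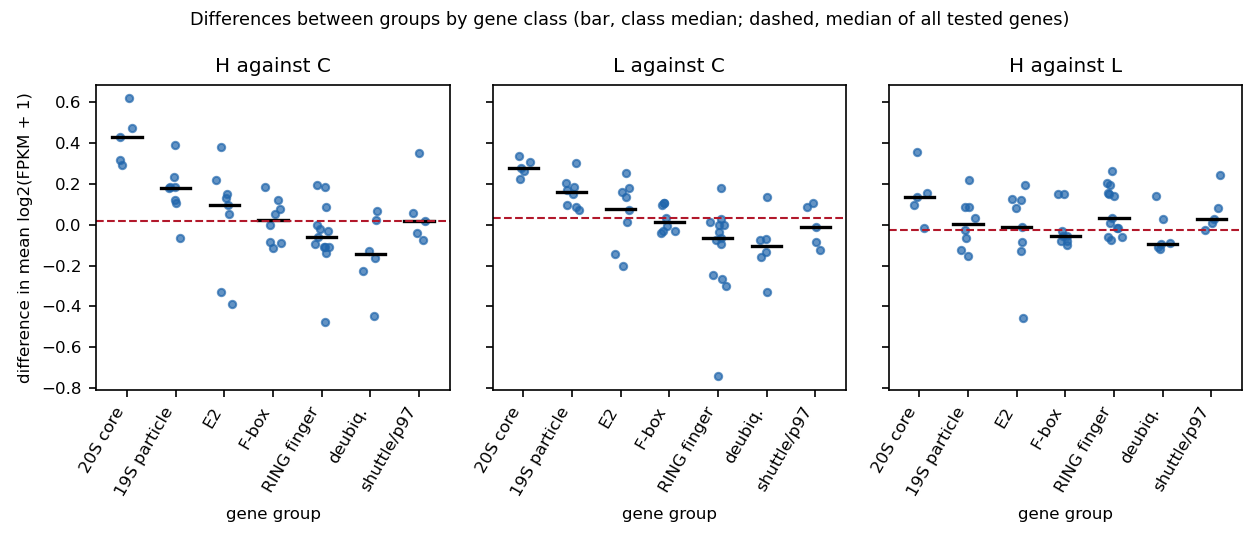
Difference in mean log2(FPKM + 1) of tested genes (points) by gene group, with H against C on the left, L against C in the middle and H against L on the right, the median of the gene group (black bars) and of all tested genes (dashed line). The 20S core lies between 0.29 and 0.62 in H against C, and its median is 0.14 in H against L.

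Between the exposed groups, the proteasome was close to even, with 8 of 13 genes above 0 in H against L (10 under median of ratios scaling) and a median of 0.09, against -0.03 for all tested genes, of which 44.9% were above 0. Under median of ratios scaling 49.6% of all tested genes were above 0. With 1 library left out the proteasome median ran from 0.01 without L1 to 0.15 without L2. No member passed an adjusted p under 0.05, where 0% of all tested genes were called, or an unadjusted p under 0.05, where 1.35% of all tested genes were, and the smallest adjusted p among members was 0.961. H lay wholly above L for 3 members (2.34% of all tested genes) and wholly below L for 1 (6.74%). The first 3 were Rnf ligase genes, namely Rnf130 with a difference of 0.20, Rnf144a with 0.14 and Rnf187 with 0.20, the last 0.08 without L3. Rnf187, a RING coactivator of c-Jun, had 137, 136 and 140 FPKM in H, 128, 132 and 103 FPKM in L and 115, 139 and 108 FPKM in C. The last was Psmd11, at 12.3, 11.99 and 12.6 FPKM in H and 14.3, 13.4 and 13.7 FPKM in L.

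The proteasome medians differed between libraries within the groups. As a median over the 13 genes, the deviation from each gene's mean was 0.17 in H1, 0.08 in H2 and 0.02 in H3, with -0.02 in L1, 0.15 in L2 and 0.04 in L3, and -0.22 in C1, 0.05 in C2 and -0.25 in C3. C2 thus lay within the range of H, and C1 and C3 lay below every other library. Over all tested genes the medians were 0.02, -0.003 and -0.04 in H1 to H3, 0.05, 0.03 and -0.01 in L1 to L3. In C1 to C3 they were 0.04, -0.01 and -0.10, so C3 was the lowest library there as well. For the 20S core the medians were 0.26, 0.26 and 0.02 in H, -0.03, 0.30 and -0.07 in L and -0.41, 0.17 and -0.47 in C. For the 19S particle they were 0.09, 0.04 and 0.02 in H, 0.01, 0.02 and 0.06 in L and -0.16, -0.05 and -0.19 in C, so here H and C did not overlap. C1 and C3 were both below all H libraries in 12 of 13 proteasome genes (19.9% of all tested genes) and were the 2 lowest of the 9 libraries in 10 of 13 (8.0% of all tested genes). C2 exceeded at least 1 H library in 7 of 13. Since C1 and C3 hold the lowest medians of these same genes, the counts for this pair are a description and no test.

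**Figure D5:**
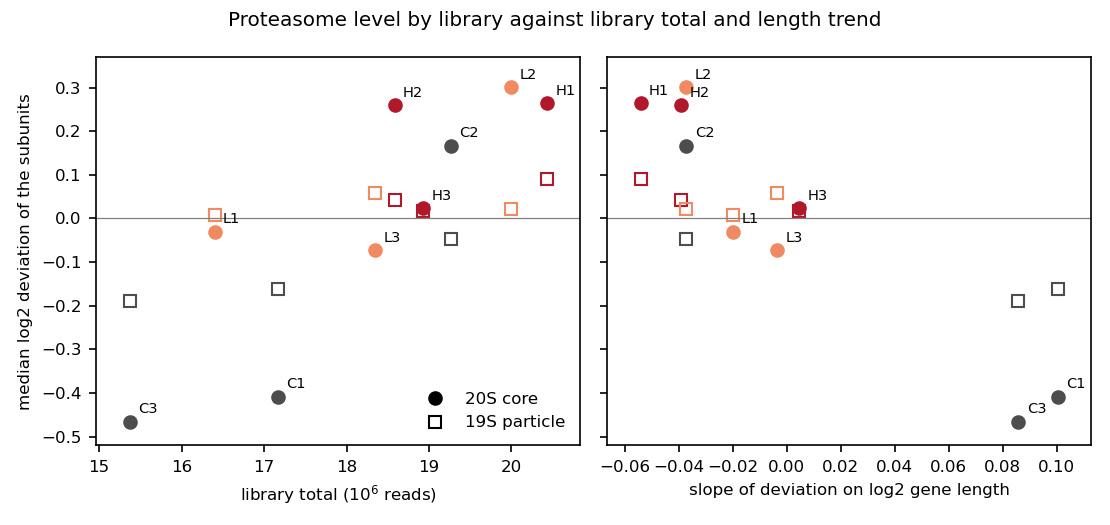
Median deviation of the 20S core (filled circles) and the 19S particle (open squares) in each library from the genes' 9-library means, against the library total in reads (left) and against the slope of the library's deviations on log2 gene length (right). C1 and C3, with totals of 17162748 and 15371513 reads and slopes of 0.10 and 0.09, hold the lowest medians of both. Over all tested genes the median was 0.04 in C1 and -0.10 in C3.

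Sequencing depth and the length trend moved with these medians. The smallest library totals, 15371513 reads in C3, 16399627 in L1 and 17162748 in C1, belonged to the libraries with the 3 lowest proteasome medians, and the steepest length slopes belonged to C1 and C3. With the log2 library total as a covariate, an alternative chosen after seeing the data, the median over the proteasome genes was 0.15 for H and 0.13 for L, each against C, and -0.0062 for H against L. With each library's length trend removed it was 0.13 in H against C and 0.10 in L against C. Under the covariate, the difference of H against C was 0.22 for Psmd4 and 0.21 for Psmb1. Without C1 and L3, the libraries with high cerebellar and low pallial markers, the median over the proteasome genes was 0.18 in H against C and 0.17 in L against C. In that fit the medians of all tested genes were 0.04 and 0.09, against 0.02 and 0.03 with all 9 libraries. Without C2 the median over the proteasome genes in H against C was 0.37. There 11 of 59 members were at an unadjusted p under 0.05 (limma), but so were 274 of all 2218 tested genes, and 0 were called. The smallest adjusted p of a member was 0.394 there and from 0.814 to 0.9995 under the other alternatives for this contrast. Depth, length trend and tissue makeup, the striatal markers included, were not separated from exposure by the design, and their part in the result was not tested.

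Of 120 further genes of the pathway listed outside the naming rule, 28 were in the table and 27 were tested. They split 14 above and 13 below 0 in H against C, 19 and 8 when L was set against C, and 11 and 16 when H was set against L, with none called. H lay wholly above C for 2 of the 27 and wholly below for 3 (5.35% and 4.94% of all tested genes). For L against C these counts were 1 and 0 (4.99% and 1.66%), and for H against L 3 and 1 (2.34% and 6.74%). Trim9, a brain ligase of the TRIM family, had 16.2, 17.2 and 19.6 FPKM in H, 20.5, 22.5 and 14.6 FPKM in L and 23.3, 21.3 and 25.9 FPKM in C. H lay wholly below C for Trim9, by -0.39 ± 0.17 (unadjusted p = 0.0475, adjusted p = 0.890, limma). Keap1, the Cul3 adaptor that marks Nrf2 for degradation, had 11.2, 11.2 and 10.97 FPKM in H, 10.6, 10.5 and 8.58 FPKM in L and 7.49, 10.02 and 9.34 FPKM in C. For Keap1 H lay wholly above both L and C, with a difference of 0.29 ± 0.14 in H against C (unadjusted p = 0.0599). Cops6, a subunit of the COP9 signalosome that strips NEDD8 from cullins, had 34.0, 38.9 and 36.9 FPKM in H, 44.0, 34.2 and 40.0 FPKM in L and 27.9, 30.9 and 32.5 FPKM in C. Both exposed groups lay wholly above C for Cops6, by 0.26 in H and by 0.36 ± 0.13 in L (unadjusted p = 0.0245, adjusted p = 0.998, limma). The cullin exchange factor Cand1 had a difference of 0.22 in L against C. The ligase gene Smurf2 had differences of -0.34 ± 0.22 in H against C (unadjusted p = 0.158, limma), which was -0.13 without C1, and -0.32 ± 0.22 in H against L (unadjusted p = 0.186, limma). Trim37 had differences of -0.25 ± 0.17 in L against C (unadjusted p = 0.188, limma) and 0.23 ± 0.17 in H against L (unadjusted p = 0.220, limma), which without L1 were -0.09 and 0.07. In H against L, Atxn3, a deubiquitinase mutated in a human polyglutamine disease, had a difference of 0.35 and the chaperone gene Hspa8 one of -0.23, with Hspa8 highest in L3 at 534 FPKM. Without L3 these were 0.22 and -0.09.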

How the data were processed

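Per the labels, mRNA libraries were made from total RNA of mouse brain, 3 per group for H, L and C. The values the authors deposited are FPKM, 1 column a library beside a column of gene lengths, per the file headers. Per the submitters' processing notes the genome build was GRCm38. Which aligner and counter were used is not given in the sources used here. Coordinates were taken from GENCODE M21 (GRCm38) by Ensembl identifier, since those in the table equalled it for 20 of 2996 genes. The length in the table equalled the union of a gene's exons for 2938 genes and exceeded the longest transcript for 59 of the 64 members, by a median factor of 1.23, which lowers their FPKM.

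FPKM multiplied by length came out as whole reads for 100% of values (tolerance 0.01 reads), which gave library totals of 15371513 to 20431208 reads. At those depths 3 reads on a gene of 1 kb correspond to 0.147 to 0.195 FPKM, a limit that covers counting error only.

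The 2226 genes that exceeded 1 FPKM in 3 or more libraries entered limma 3.58.1 (R 4.3.3) as log2(FPKM + 1), a scale that shrinks the differences of low genes. All 9 libraries entered 1 fit with trend and robust moderation, two-sided p-values were adjusted by the Benjamini-Hochberg method over all tested genes, and the threshold was 0.05. The members and gene lists were chosen with earlier results of these data known. Named were every proteasome and ubiquitin precursor gene, the 2 most abundant members of each other class, the 3 smallest p-values in each direction outside the proteasome per contrast, the 3 members of widest range, and 2 further pathway genes in each direction. Some genes that this rule or the marker lists name are not reported here. Ube2g2 and Usp40 were chosen after their values were seen, and members at the filter are named for that. Promoters came from RefSeq on GRCm38.p6. The fit was tested on simulated data. Alternatives covered pseudocount, filter, scaling, limma-voom on the recovered reads, moderation, libraries in the fit, replicate block, covariates, length trend, threshold and libraries left out, and library total as a covariate was added after seeing the data. Python 3.11.15 with pandas 2.3.3 read the tables and matplotlib 3.10.9 drew the figures.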

Additional observations from a re-analysis of the deposited data

How the results depend on the processing

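Under every alternative run, 0 genes and 0 members were called in any of the 3 contrasts, limma-voom included, also at an adjusted p under 0.1. Counts at an unadjusted p under 0.05 moved with single libraries. Without C2, 274 of 2218 genes and 11 of 59 members passed in H against C. Without H1, H2, H3 or C1, 0 members did, where 18, 19, 58 and 38 of all tested genes passed. The median difference of the proteasome genes ranged over fits with 1 library left out from 0.18 to 0.37 in H against C, from 0.12 to 0.31 in L against C and from 0.01 to 0.15 in H against L, with 0.37 reached without C2. The cause was not tested. Near 0 some signs turned. Psmc1 in H against C was -0.00925 under quantile normalization. With the length trend removed, H against C was -0.00496 for Ubb, -0.00149 for Psmc5 and -0.00826 for Psmc1, and L against C was -0.00561 for Psmc3. Without C1 and L3, Psmd11 in H against C was 0.0166 and Psmc5 in L against C was -0.00829. With 1 library left out, values ranged from -0.12 to 0.0166 for Psmd11 in H against C, from -0.0578 to 0.59 for Psmb4 in L against C and from -0.00854 to 0.34 for Psmc5 in L against C. The cause of these turns was not tested. With the replicate number as a block, the calls stayed at 0 and the proteasome medians at 0.24 for H and 0.21 for L, each against C, and at 0.09 for H against L. At an unadjusted p under 0.05 there were 5 members in H against C, where 86 of 2226 tested genes passed. There were 0 members in L against C and in H against L, where 73 and 40 genes passed. Same-numbered libraries of different groups had correlations of their deviations from -0.51 to 0.68, and differently numbered ones from -0.62 to 0.66. The deviations were taken within groups of 3 libraries, so these correlations cannot decide whether same-numbered libraries were paired. With 3 libraries a group and a median 95% half-width of 0.45 over all tested genes, small differences were not resolved at this size.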
